A study of Homo sapiens with 27 samples.

Results

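Ribosome biogenesis was followed through 41 genes whose products build ribosomes, set beside MYC, the transcription factor that drives many of them. The members were found by gene symbol in the read count table of each cell line. All 41 were listed in each table, which held 24379 (22Rv1), 23532 (DU145) and 23462 (PC3) genes, and all 41 passed the filter on low counts in each line. By role they comprised 7 genes of ribosomal DNA transcription, 6 of small nucleolar ribonucleoproteins (snoRNPs), 5 abundant nucleolar proteins, 10 genes of small subunit assembly and 13 of large subunit assembly.

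The libraries were bulk RNA sequencing of prostate cancer cells grown as the lines 22Rv1, PC3 and DU145. Each line gave 3 libraries of cells carrying control gRNA 1, labelled WT. A further 3 came from each of 2 guides against RIPK2, labelled RIPK2 knockout: gRNA 1 and gRNA 10 in 22Rv1, and gRNA 2 and gRNA 10 in DU145 and PC3. RIPK2 is the kinase that relays signals from the bacterial sensors NOD1 and NOD2. The labels state neither whether a knockout population was a clone or a pool nor whether the 3 libraries of a group came from separate cultures, so the p-values measure only the spread between these libraries, which may be technical.

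Ribosomes are made in the nucleolus. RNA polymerase I transcribes ribosomal DNA, snoRNPs guide the chemical modification of the precursor RNA, and separate sets of assembly factors cut, fold and package it into the small and the large subunit. MYC is known to raise this programme by binding E-box motifs, most readily the letters CACGTG, in the promoters of many of the genes involved, and MYC is often raised in prostate cancer.

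Promoter windows of RefSeq (assembly GRCh38.p14, 250 bases before to 50 after the gene start) were found for 32 members and searched for CACGTG, which reads the same on both strands. The motif lay in 14 of them, or 43.8%. Among all 27305 genes with a window, 8.78% held it, and among the 12732 of those tested in at least 1 line, 11.9%. Of 86 further ribosome biogenesis genes with a window, from the list counted further on, 30 held it, or 34.9%. BOP1, DDX18, NOLC1, NOP58, RRP12, RRP1B, RRS1, TCOF1 and URB2 had no entry. A match describes letters and not binding, which was not measured. The 30 bases around the motif are printed for 8 of the 14, as examples from each role, 5′ to 3′ on the strand of the gene, with the motif in capitals.
FBL, at chr19:39846356-39846385, minus strand: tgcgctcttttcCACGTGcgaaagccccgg
LYAR, at chr4:4290068-4290097, minus strand: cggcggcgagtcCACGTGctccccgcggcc
DDX21, at chr10:68956604-68956633, plus strand: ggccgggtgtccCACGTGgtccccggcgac
UTP20, at chr12:101280083-101280112, plus strand: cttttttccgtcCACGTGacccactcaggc
NOP14, at chr4:2963374-2963403, minus strand: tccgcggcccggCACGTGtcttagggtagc
GNL3, at chr3:52686026-52686055, plus strand: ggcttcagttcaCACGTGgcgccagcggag
MRTO4, at chr1:19251807-19251836, plus strand: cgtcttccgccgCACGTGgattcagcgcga
NAT10, at chr11:34105602-34105631, plus strand: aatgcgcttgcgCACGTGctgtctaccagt

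In the FBL, NOP14, GNL3 and MRTO4 windows the motif began 7, 16, 7 and 15 bases after the start of the gene. In the others it began before the start, by 64 bases in LYAR, 31 in DDX21, 15 in NAT10 and 10 in UTP20. The other members with the motif were MYBBP1A, NOP2, PES1, RRP9, UTP4 and WDR43.

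RIPK2 mRNA was lower than in every control library of the line in all knockout libraries, in CPM, which are counts scaled to the library total and to TMM (trimmed mean of M values) factors. In 22Rv1 its control libraries held 15.8, 18.2 and 16.1 CPM, those of gRNA 1 9.42, 8.32 and 8.33, and those of gRNA 10 5.58, 5.37 and 5.20. In DU145 the values were 39.4, 44.4 and 43.5 in the control, 9.87, 13.35 and 12.2 for gRNA 2, and 36.4, 33.4 and 34.4 for gRNA 10. In PC3 they were 59.5, 59.3 and 62.4 in the control, 21.7, 20.1 and 20.1 for gRNA 2, and 25.5, 28.3 and 27.8 for gRNA 10. No knockout group overlapped its control, though the gap was small for DU145 gRNA 10. The log2 fold changes in edgeR's quasi-likelihood test were -0.94 and -1.63 with gRNA 1 and gRNA 10 in 22Rv1 and -1.55 and -1.15 with gRNA 2 and gRNA 10 in PC3, each past an adjusted p of 0.05. In DU145 gRNA 2 gave -1.84, while gRNA 10 gave -0.29, which did not pass (edgeR adjusted p 0.0614, SE 0.11). It passed when any 1 gRNA 2 library was left out, with only the 2 groups compared and in DESeq2 (adjusted p 0.000576 to 0.0454). The DU145 gRNA 10 libraries are therefore called by their label here, and protein was not measured. Each table held between 17958558 and 20650819 counts per library, and edgeR's common estimate of variation between replicates (as a coefficient of variation) was 14.2% for 22Rv1, 12.3% for DU145 and 3.55% for PC3, so smaller changes passed the test in PC3. A pair of libraries stood apart, replicate 3 of 22Rv1 gRNA 1, with 16.7% of its counts in mitochondrially encoded genes against 0.515 to 2.10% in the other 8 of the line, and replicate 3 of DU145 gRNA 2, described further on. Epithelial markers were present in all groups. Of 5 luminal markers, up to 4 had no count in a DU145 group (KLK2 and KLK3 in the control and with gRNA 2), and the 5 summed to at most 30.7 CPM. Here and below, sums of markers are scaled to the library total only, without TMM factors. In PC3, KLK3 had no count in the control or with gRNA 10.

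MYC moved in different directions in the 3 lines. In 22Rv1 the control libraries held 429, 374 and 388 CPM, the gRNA 1 libraries 252, 264 and 265.5, and the gRNA 10 libraries 352, 343 and 346. Both knockout groups lay below the control, with log2 fold changes of -0.61 (edgeR adjusted p 0.000154, SE 0.08) for gRNA 1 and -0.19 (edgeR adjusted p 0.0771, SE 0.08) for gRNA 10, of which the second did not pass. It passed without control replicate 2 or gRNA 1 replicate 3 (adjusted p 0.0367 and 0.0195), in DESeq2 (adjusted p 0.0415) and with only the groups compared (adjusted p 0.0316). In DU145 the levels were 84.0, 81.8 and 88.7 CPM in the control, 145, 145 and 209.5 with gRNA 2, and 111, 119 and 114.5 with gRNA 10. MYC rose in DU145, by 0.97 with gRNA 2 (edgeR adjusted p 0.000485, SE 0.13) and by 0.44 with gRNA 10 (edgeR adjusted p 0.0239, SE 0.13), though the second call was lost when any 1 control or gRNA 10 library was left out (adjusted p 0.0536 to 0.0854). In PC3 the control libraries held 195, 208 and 195 CPM, those of gRNA 2 149, 147 and 142.5, and those of gRNA 10 77.4, 72.6 and 78.6. MYC fell with both guides in PC3, by 0.45 on the log2 scale with gRNA 2 (edgeR adjusted p 2.5e-11, SE 0.04) and by 1.39 with gRNA 10 (edgeR adjusted p 4.32e-23, SE 0.04). The 3 groups of PC3 did not overlap.

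**Figure D1:**
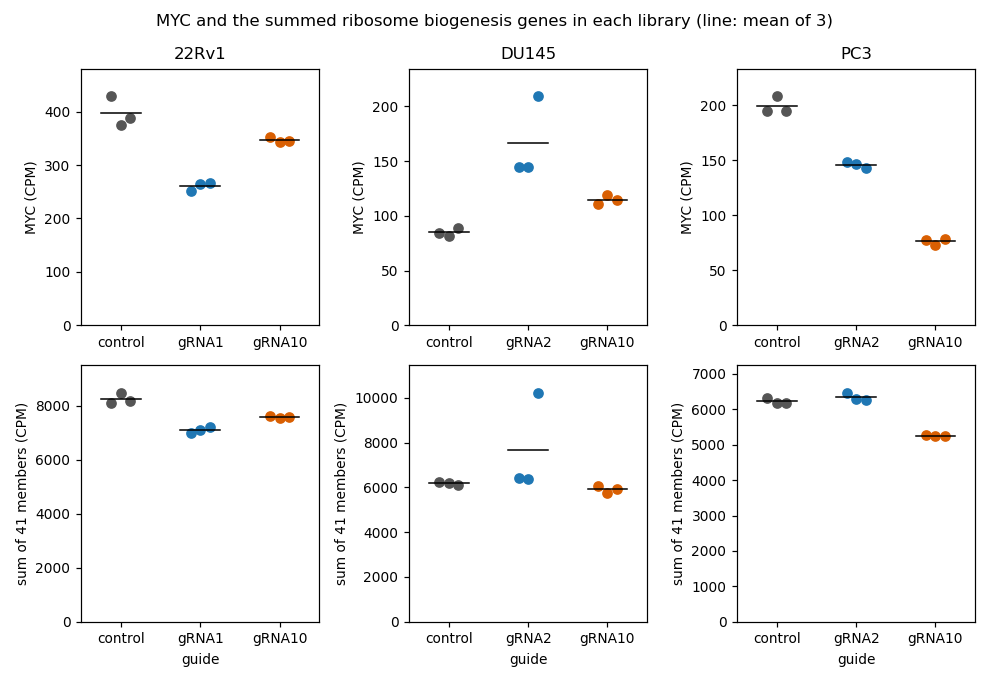
MYC (top) and the sum of the 41 members (bottom) in each library, in CPM, for the control and both RIPK2 guides of each line; points are libraries and bars are means of 3. In PC3 MYC is lower with both guides while the member sum is lower with gRNA 10 and not with gRNA 2; in DU145 a single gRNA 2 library holds 10230 CPM of member counts.

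The 41 genes did not follow MYC in one pattern. In 22Rv1 with gRNA 1, 13 members fell and 6 rose, where 22.9% and 25.6% of all genes tested fell and rose. For 22Rv1 gRNA 10, 5 fell and 5 rose, against 20.6% and 20.0% of all genes. In DU145 with gRNA 2, 13 rose and 0 fell, against 17.1% and 17.0% of all genes, and with gRNA 10, 4 rose and 8 fell, against 20.2% and 19.8%. In PC3 with gRNA 2, 27 rose and 5 fell, against 32.1% and 31.5%, although MYC fell. With gRNA 10 in PC3, where MYC fell further, 7 rose and 26 fell, against 37.9% and 35.6%. Each pair of guides in a line shares its control libraries.

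The median log2 fold change of the members was -0.20 and -0.03 with gRNA 1 and gRNA 10 in 22Rv1, 0.36 and -0.06 with gRNA 2 and gRNA 10 in DU145, and 0.16 and -0.18 with gRNA 2 and gRNA 10 in PC3. The median of all genes tested was 0.02 with gRNA 1 in 22Rv1 and nearer to 0 in the other 5. PA2G4, a growth-regulated protein that binds precursor ribosomes, was the member called in the same direction in 5 of the 6, always higher. The share of all genes called so often in one direction is not given here. In these bulk samples, fewer cells with a high level and less RNA per cell cannot be told apart.

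**Figure D2:**
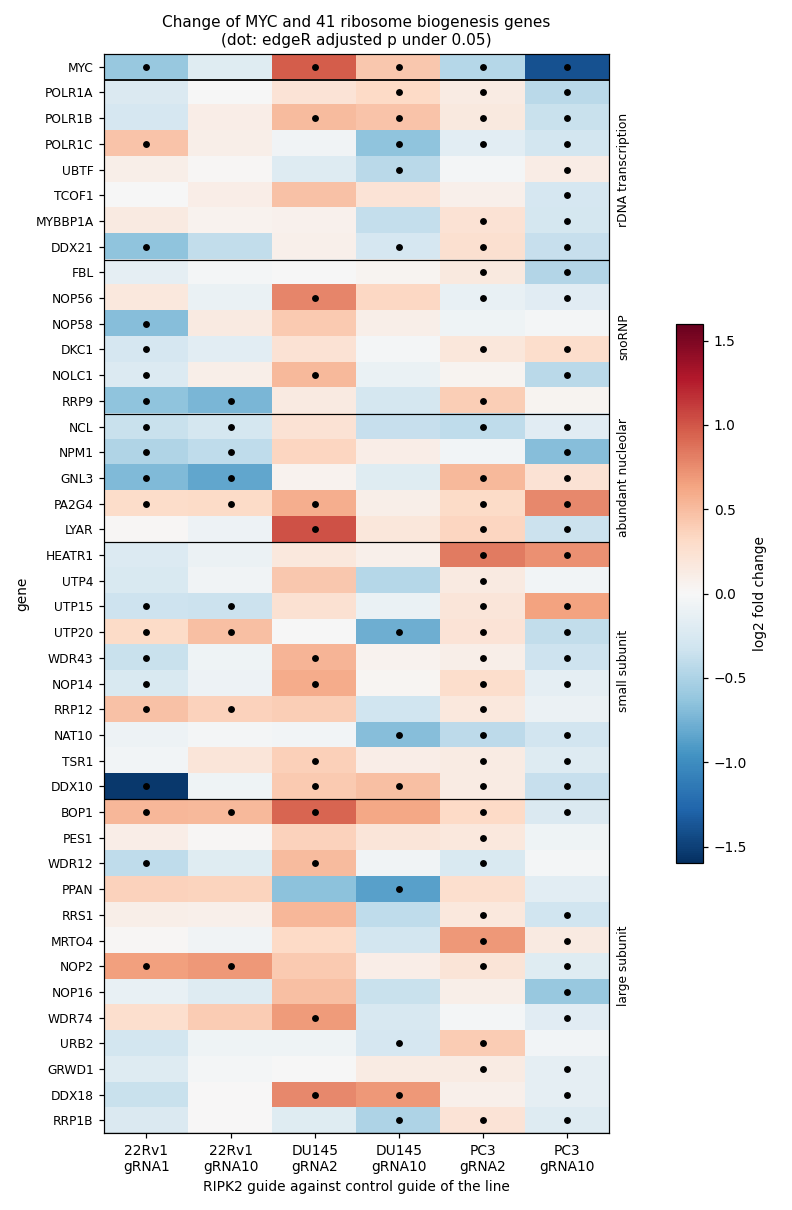
Log2 fold change (colour, red higher and blue lower) of MYC and the 41 members for each RIPK2 guide against the control of the line, with members grouped by role; a dot marks an edgeR adjusted p under 0.05. The column of PC3 gRNA 2 is mostly red and that of PC3 gRNA 10 mostly blue, with 27 and 7 members higher.

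By summed level, the members held 8088 to 8490 CPM in the 22Rv1 control libraries, 6974 to 7228 with gRNA 1 and 7545 to 7634 with gRNA 10, so the 3 groups did not overlap. NCL and NPM1 made up a large part of the sum. Without them the ranges were 5270 to 5295 CPM in the control, 4836 to 4916 with gRNA 1 and 5225 to 5293 with gRNA 10, and the gRNA 10 libraries overlapped the control. In PC3 the sum was 6178 to 6324 CPM in the control, 6265 to 6475 with gRNA 2 and 5234 to 5285 with gRNA 10. Without NCL and NPM1 the gRNA 2 libraries, at 3996 to 4146 CPM, lay above the control at 3605 to 3668, and the gRNA 10 libraries, at 3357 to 3400, lay below it. The lines were scaled separately, so these sums are not compared between them. Markers moved beside these changes, in CPM without the TMM factors used for the member sums. In 22Rv1 luminal markers summed to 991 to 1020 CPM in the control, 456 to 477 with gRNA 1 and 786 to 805 with gRNA 10, and in PC3 to 1460 to 1500, 1020 to 1060 with gRNA 2 and 1150 to 1200 with gRNA 10. Fibroblast markers summed to 8.23 to 10.5 CPM in the 22Rv1 control, 14.4 to 29.1 with gRNA 1 and 24.9 to 26.8 with gRNA 10, and in PC3 to 27.6 to 29, 45.1 to 52.8 with gRNA 2 and 51.9 to 57 with gRNA 10. The sums hide splits between genes. Of 3 luminal markers tested in PC3, 2 rose and 1 fell with each guide. Of 2 fibroblast markers tested there, 1 rose and 1 fell with each guide. In 22Rv1, 3 of 5 luminal markers fell with each guide, while 0 rose with gRNA 1 and 2 with gRNA 10. Of 3 fibroblast markers tested in 22Rv1, 2 rose and 0 fell with each guide. The part of these markers in the member changes was not tested.

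Levels of different genes were compared per kilobase of exon (GENCODE 29 lengths) in the control libraries. NPM1 and NCL stood highest in every line, with 598 and 254 CPM per kilobase in PC3. PPAN stood lowest in every line, at 0.80 in 22Rv1, 1.89 in DU145 and 1.06 in PC3. PPAN encodes a large subunit assembly factor, and its reads overlap a readthrough transcript with the neighbouring P2RY11, so its low value is uncertain. FBL, the methyltransferase of box C/D snoRNPs, held 220 CPM per kilobase in 22Rv1 and 215 in DU145, and 64.2 in PC3.

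Among the genes of ribosomal DNA transcription, PC3 gave the clearest split between the guides. In PC3 with gRNA 10, 6 of the 7 fell and UBTF rose, where 35.6% of all genes fell and 37.9% rose. With gRNA 2, 4 rose and POLR1C fell, against 32.1% and 31.5% of all genes. POLR1A, the largest subunit of RNA polymerase I, held 124, 137 and 132 CPM in the PC3 control libraries, 141, 145.5 and 144 with gRNA 2, and 102, 102 and 86.9 with gRNA 10. It fell by 0.44 with gRNA 10 (edgeR adjusted p 4.49e-08, SE 0.05), and the rise of 0.13 with gRNA 2 (edgeR adjusted p 0.0261) was lost without control replicate 1 or 3 or gRNA 2 replicate 2 or 3 (adjusted p 0.0524 to 0.139). DDX21, a helicase that promotes transcription and processing in the nucleolus, held 261, 269 and 259 CPM in the PC3 control, 329, 321.5 and 292 with gRNA 2 and 199.9, 209 and 205 with gRNA 10. The 3 groups did not overlap, and DDX21 rose by 0.26 with gRNA 2 (edgeR adjusted p 1.39e-06, SE 0.04) and fell by 0.36 with gRNA 10 (edgeR adjusted p 1.82e-09, SE 0.04).

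POLR1B, the second largest subunit of the polymerase, rose with both guides in DU145. Its control libraries held 41.7, 40.4 and 45.8 CPM, those of gRNA 2 57.2, 62.5 and 61.7, and those of gRNA 10 59.0, 60.7 and 55.6. Both knockout groups lay above the control, by 0.50 (edgeR adjusted p 0.00141, SE 0.08) and 0.45 (edgeR adjusted p 0.00172, SE 0.08) on the log2 scale. UBTF, the factor that opens and loads ribosomal DNA, fell with DU145 gRNA 10 by 0.43 (edgeR adjusted p 0.00168, SE 0.08) and rose with PC3 gRNA 10 by 0.12 (edgeR adjusted p 0.00181, SE 0.03). POLR1C, a subunit shared by RNA polymerases I and III, rose in 22Rv1 by 0.46 with gRNA 1 (edgeR adjusted p 0.004, SE 0.10), while DDX21 fell there by 0.64 (edgeR adjusted p 0.0161, SE 0.19). The DDX21 call in 22Rv1 was lost without control replicate 2 (adjusted p 0.0769), and the change was -0.43 (adjusted p 0.000811) without gRNA 1 replicate 3.

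Of the 6 snoRNP genes, 4 fell with gRNA 1 in 22Rv1, where 22.9% of all genes fell, and 1 with gRNA 10, where 20.6% did. NOP58, a core protein of box C/D snoRNPs, held 132, 171 and 138 CPM in the control, 84.2, 81.5 and 110.2 with gRNA 1 and 162, 155 and 169.7 with gRNA 10. It fell by 0.68 with gRNA 1 (edgeR adjusted p 0.00219, SE 0.14), and the gRNA 1 libraries lay below all others. RRP9, which binds the U3 snoRNA, held 83.3, 58.55 and 82.5 CPM in the 22Rv1 control, and all 6 knockout libraries lay between 42.8 and 52.6. RRP9 fell by 0.64 with gRNA 1 (edgeR adjusted p 0.003, SE 0.14) and by 0.73 with gRNA 10 (edgeR adjusted p 0.00162, SE 0.14). DKC1, the pseudouridine synthase of box H/ACA snoRNPs, fell by 0.26 with gRNA 1 (edgeR adjusted p 0.0358, SE 0.09), a call lost when any 1 library of the control or of gRNA 10 was left out or only the groups compared were fitted (adjusted p 0.0594 to 0.107).

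In PC3, DKC1 instead rose with both guides, by 0.19 (edgeR adjusted p 6.53e-05, SE 0.04) and 0.28 (edgeR adjusted p 8.74e-08, SE 0.04). FBL went both ways there. The PC3 control libraries held 76.9, 69.7 and 76.9 CPM of FBL, those of gRNA 2 85.1, 79.2 and 85.4, and those of gRNA 10 54.1, 52.2 and 55.4. FBL fell by 0.47 with gRNA 10 (edgeR adjusted p 6.14e-10, SE 0.05) and rose by 0.16 with gRNA 2 (edgeR adjusted p 0.00361, SE 0.05), the latter not past the threshold without control replicate 2 (adjusted p 0.0544). NOP56, the partner of NOP58 in box C/D snoRNPs, fell in PC3 by 0.12 with gRNA 2 (edgeR adjusted p 0.0193) and by 0.18 with gRNA 10 (edgeR adjusted p 0.000402). The NOP56 call for gRNA 2 was lost without control replicate 1 or gRNA 2 replicate 2 (adjusted p 0.137 and 0.157). NOLC1, a chaperone of snoRNPs, held 160, 163 and 155 CPM in the PC3 control and 118, 115 and 122 with gRNA 10, a fall of 0.43 (edgeR adjusted p 5.38e-11, SE 0.04). In DU145 NOLC1 rose by 0.52 with gRNA 2 (edgeR adjusted p 0.00444, SE 0.11).

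**Figure D3:**
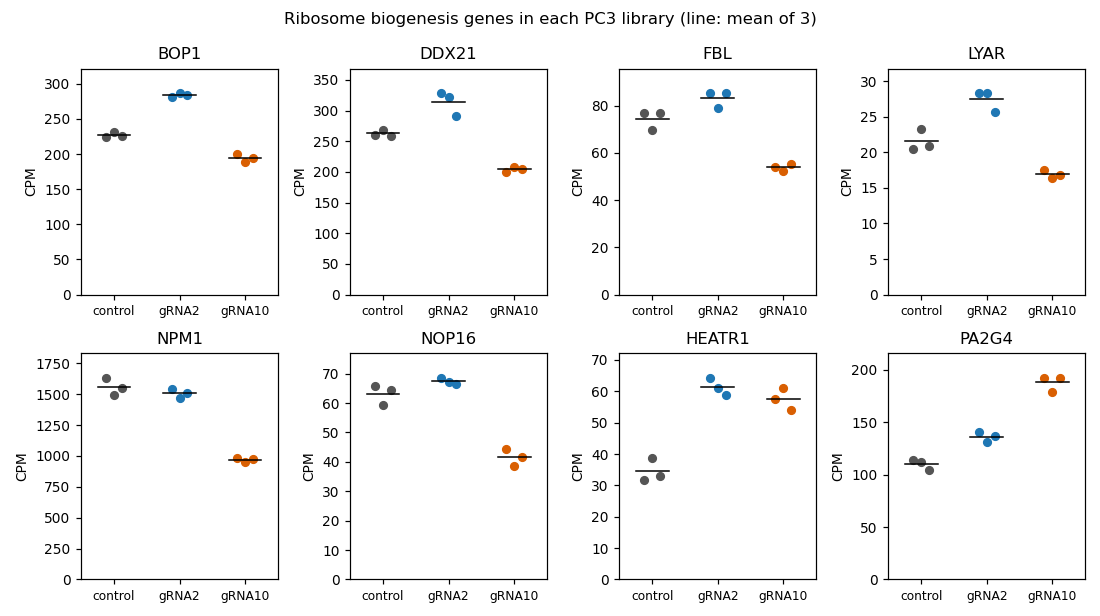
CPM of 8 members in each PC3 library, for the control, gRNA 2 and gRNA 10; points are libraries and bars are means of 3, each axis starting at 0. BOP1, DDX21, FBL and LYAR lie above the control means with gRNA 2 and below with gRNA 10, NPM1 and NOP16 are low with gRNA 10, and HEATR1 and PA2G4 are high with both guides.

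The abundant nucleolar proteins include the most highly expressed members. NCL, nucleolin, which binds nascent ribosomal RNA, fell with both guides in 22Rv1 and in PC3. In 22Rv1 it held 1394, 1505 and 1448 CPM in the control, 1107, 1084 and 1191 with gRNA 1 and 1188, 1191 and 1183 with gRNA 10. These are falls of 0.36 (edgeR adjusted p 0.00319, SE 0.08) and 0.29 (edgeR adjusted p 0.0127, SE 0.08), the second lost when any 1 gRNA 10 library was left out and with no filter on low counts (adjusted p 0.0529 to 0.057). In PC3 NCL fell by 0.41 with gRNA 2 (edgeR adjusted p 2.23e-12, SE 0.03) and by 0.18 with gRNA 10 (edgeR adjusted p 1.27e-05, SE 0.03).

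NPM1, nucleophosmin, a chaperone of ribosomal particles, also fell with both guides in 22Rv1. The control libraries held 1424, 1689 and 1443 CPM, those of gRNA 1 1032, 1100 and 1127, and those of gRNA 10 1153, 1130 and 1145. The falls were 0.48 (edgeR adjusted p 0.0013, SE 0.09) and 0.41 (edgeR adjusted p 0.00389, SE 0.09), and no knockout library reached the control. In PC3 the control libraries held 1634, 1494 and 1547 CPM, those of gRNA 2 1544, 1468 and 1510, and those of gRNA 10 986, 952 and 972. NPM1 fell by 0.68 with gRNA 10 (edgeR adjusted p 4.49e-17, SE 0.04), while the gRNA 2 libraries overlapped the control and did not pass (-0.05, edgeR adjusted p 0.235, SE 0.04). NPM1 has many processed pseudogenes, and how the authors counted reads shared with them is not given in the sources used here.

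GNL3, nucleostemin, a nucleolar GTPase, fell with both guides in 22Rv1 and rose with both in PC3. In 22Rv1 it held 239, 285 and 248 CPM in the control, 146, 148 and 179.7 with gRNA 1 and 142, 145 and 148 with gRNA 10, falls of 0.70 (edgeR adjusted p 0.00036, SE 0.11) and 0.83 (edgeR adjusted p 0.000127, SE 0.11). In PC3 it rose by 0.51 with gRNA 2 (edgeR adjusted p 1.26e-12, SE 0.04) and by 0.23 with gRNA 10 (edgeR adjusted p 5.69e-06, SE 0.04). PA2G4 held 114, 112 and 104 CPM in the PC3 control, 141, 131 and 137 with gRNA 2 and 192.5, 179 and 193 with gRNA 10. It rose by 0.31 (edgeR adjusted p 2.78e-07, SE 0.04) and 0.77 (edgeR adjusted p 1.8e-16, SE 0.04), so its order across the PC3 groups was the reverse of that of MYC. In 22Rv1 PA2G4 rose by 0.29 and 0.31 (edgeR adjusted p 0.0125 and 0.0114), the first not past the threshold without control replicate 1, with no filter or with only the groups compared (adjusted p 0.0516 to 0.0972). In DU145 PA2G4 held 181.5, 190.5 and 177.3 CPM in the control and 222, 206.9 and 391.6 with gRNA 2, so 1 gRNA 2 library stood far above the rest. It rose by 0.58 (edgeR adjusted p 0.044, SE 0.20), a call lost when any 1 control or gRNA 10 library was left out, with no filter and with only the groups compared (adjusted p 0.0651 to 0.124). Without gRNA 2 replicate 3 the change was 0.23 (adjusted p 0.00838).

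LYAR, a zinc finger protein of precursor ribosomes, gave the largest rise of the 41 in DU145. It held 45.7, 46.9 and 44.65 CPM in the control, 74.0, 72.0 and 132 with gRNA 2 and 53.9, 46.4 and 54.9 with gRNA 10. It rose by 1.02 with gRNA 2 (edgeR adjusted p 0.00372, SE 0.20), and all 3 gRNA 2 libraries lay above the control. In PC3 LYAR rose by 0.35 with gRNA 2 (edgeR adjusted p 2.37e-05, SE 0.06) and fell by 0.35 with gRNA 10 (edgeR adjusted p 4.82e-05, SE 0.07).

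The small subunit genes held the largest single change. DDX10, an RNA helicase of small subunit assembly, held 54.9, 68.4 and 54.1 CPM in the 22Rv1 control, 20.4, 21.1 and 19.4 with gRNA 1, and 53.5, 57.2 and 57.9 with gRNA 10. It fell by 1.54 with gRNA 1 (edgeR adjusted p 1.99e-06, SE 0.11), while gRNA 10 overlapped the control. The direct comparison of the guides gave -1.47 for gRNA 1 against gRNA 10 (edgeR adjusted p 4.44e-06, SE 0.11). HEATR1, a factor of the early small subunit processome, held 31.8, 38.9 and 33.03 CPM in the PC3 control, 64.3, 61.0 and 58.7 with gRNA 2 and 57.5, 61.2 and 53.9 with gRNA 10. Both groups lay above the control, with rises of 0.83 (edgeR adjusted p 6.58e-11, SE 0.06) and 0.73 (edgeR adjusted p 3.86e-10, SE 0.06).

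UTP20, a large scaffold of the same processome, fell in DU145 with gRNA 10. Its control libraries held 101.3, 94.5 and 92.1 CPM and those of gRNA 10 60.3, 50.7 and 57.0, a fall of 0.78 (edgeR adjusted p 0.00219, SE 0.15). In 22Rv1 UTP20 rose by 0.48 with gRNA 10 (edgeR adjusted p 0.00575, SE 0.11). NAT10, which acetylates the small subunit RNA, fell with DU145 gRNA 10 by 0.68 (edgeR adjusted p 0.00255, SE 0.13) and with both guides in PC3, by 0.42 (edgeR adjusted p 1.71e-10, SE 0.04) and 0.30 (edgeR adjusted p 8.82e-08, SE 0.04). It was the small subunit gene that fell with gRNA 2 in PC3, where the other 9 rose, against 31.5% and 32.1% of all genes. For gRNA 10 in PC3, 6 of the 10 fell and HEATR1 and UTP15 rose, against 35.6% and 37.9%. UTP15, a subunit of the processome that also acts on ribosomal DNA transcription, held 17.6, 16.3 and 18.7 CPM in the PC3 control and 26.7, 26.3 and 29.6 with gRNA 10, a rise of 0.65 (edgeR adjusted p 1.29e-09, SE 0.07).

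RRP12, needed for export of the subunits, rose with both guides in 22Rv1. It held 94.9, 73.2 and 93.5 CPM in the control, 120.2, 127 and 116 with gRNA 1 and 114, 113 and 110.1 with gRNA 10, rises of 0.47 (edgeR adjusted p 0.00428, SE 0.11) and 0.37 (edgeR adjusted p 0.0184, SE 0.11). No knockout library overlapped the control, and the second call was lost without gRNA 10 replicate 1 or 2 (adjusted p 0.0623 and 0.0621). NOP14, a processome factor, rose in DU145 with gRNA 2 by 0.60 (edgeR adjusted p 0.00626, SE 0.13), from 85.05, 76.3 and 85.8 CPM in the control to 111.5, 108 and 154. In PC3 it rose by 0.28 with gRNA 2 (edgeR adjusted p 4.24e-06, SE 0.05) and fell by 0.14 with gRNA 10 (edgeR adjusted p 0.00697, SE 0.05), the fall not past the threshold without gRNA 10 replicate 3 (adjusted p 0.052).

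In large subunit assembly, BOP1, PES1 and WDR12 form a complex needed to process the large subunit RNA, and their transcripts did not move as a unit. BOP1 rose with both guides in 22Rv1, by 0.53 (edgeR adjusted p 0.0166, SE 0.16) and 0.52 (edgeR adjusted p 0.0218, SE 0.16), the second lost without control replicate 2 or any 1 gRNA 10 library (adjusted p 0.0507 to 0.0654). In PC3 its control libraries held 225, 231 and 225.5 CPM, those of gRNA 2 282, 287 and 284, and those of gRNA 10 199.6, 189 and 194. BOP1 rose by 0.32 with gRNA 2 (edgeR adjusted p 1.72e-09, SE 0.03) and fell by 0.23 with gRNA 10 (edgeR adjusted p 1.28e-06, SE 0.04). WDR12 fell in 22Rv1 with gRNA 1 by 0.41 (edgeR adjusted p 0.00792, SE 0.10), rose in DU145 with gRNA 2 by 0.50 (edgeR adjusted p 0.00125, SE 0.08) and fell in PC3 with gRNA 2 by 0.25 (edgeR adjusted p 0.000138, SE 0.05). PES1 passed in 1 comparison, a rise of 0.17 with PC3 gRNA 2 (edgeR adjusted p 0.000367, SE 0.04).

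NOP2, the methyltransferase of the large subunit RNA, held 112, 103 and 115 CPM in the 22Rv1 control, 144.5, 152 and 226 with gRNA 1 and 184, 173 and 175 with gRNA 10. It rose by 0.66 (edgeR adjusted p 0.00462, SE 0.15) and 0.69 (edgeR adjusted p 0.00417, SE 0.15), and every knockout library lay above the control. Without gRNA 1 replicate 3 the first was 0.42 and passed. MRTO4, which holds the place of a ribosomal stalk protein during assembly, held 59.8, 58.1 and 56.8 CPM in the PC3 control, 100.4, 90.3 and 91.4 with gRNA 2 and 65.4, 61.7 and 66.6 with gRNA 10. The rise was 0.69 with gRNA 2 (edgeR adjusted p 8.07e-14, SE 0.05) and 0.15 with gRNA 10 (edgeR adjusted p 0.00739, SE 0.05). DDX18, a helicase of large subunit assembly, rose with both guides in DU145, by 0.77 (edgeR adjusted p 0.00101, SE 0.12) and 0.69 (edgeR adjusted p 0.00127, SE 0.12). Its control libraries held 98.7, 97.7 and 97.4 CPM, those of gRNA 2 141.5, 157 and 203, and those of gRNA 10 168, 149.6 and 156, and both knockout groups lay above the control.

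PPAN was the largest fall of a member with gRNA 10 in DU145, at 3.84, 3.07 and 2.93 CPM in the control and 1.66, 2.20 and 1.502 with gRNA 10. The fall of 0.87 (edgeR adjusted p 0.039, SE 0.30) was lost when any 1 control library, or gRNA 10 replicate 1 or 3, was left out (adjusted p 0.0669 to 0.136). RRP1B, a nucleolar partner of ribosomal RNA processing, fell there too, from 185, 188 and 183 CPM in the control to 129, 134 and 131.5, by 0.50 (edgeR adjusted p 0.000781, SE 0.08). Over the 13 large subunit genes in PC3, 8 rose and WDR12 fell with gRNA 2, against 32.1% and 31.5% of all genes, and 8 fell and MRTO4 rose with gRNA 10, against 35.6% and 37.9%.

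The populations of the 2 guides were also compared directly. That contrast holds no control group, but the control libraries were part of the fit and of its estimate of the spread. In PC3, 38 of the 41 members differed, 31 higher and 7 lower in gRNA 2 than in gRNA 10, where 36.5% and 36.9% of all genes tested did, 73.4% in all. MYC was likewise higher with gRNA 2 than with gRNA 10, by 0.94 (edgeR adjusted p 1.09e-18, SE 0.04). The members with the widest gaps were NOP16 and LYAR, each 0.70 higher (edgeR adjusted p 3.12e-13 and 9.35e-11), with NPM1 at 0.64 (edgeR adjusted p 2.56e-16), FBL at 0.63 (edgeR adjusted p 6.19e-13) and DDX21 at 0.62 (edgeR adjusted p 8.41e-15). The 7 that were lower with gRNA 2 were DKC1, NAT10, NCL, PA2G4, UBTF, UTP15 and WDR12. In DU145, 17 members were higher and 0 lower with gRNA 2 than with gRNA 10, against 19.2% and 19.6% of all genes, 38.8% in all. Without gRNA 10 replicate 3, 10 differed, against 27.1% of all genes. With all libraries, MYC was higher with gRNA 2 than with gRNA 10 in DU145, by 0.53. In 22Rv1, 1 member was higher and 5 lower with gRNA 1, against 18.8% and 16.8%, 35.6% in all. MYC was at -0.41 for gRNA 1 against gRNA 10 there.

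The E-box motif was set beside these counts. In PC3 with gRNA 2, 13 of the 14 members with CACGTG in the window rose and NAT10 fell, against 9 higher and 4 lower of the 18 whose window lacked it. Of the 14, 9 fell with gRNA 10 in PC3 and GNL3 and MRTO4 rose, against 11 lower and 5 higher of the 18. With gRNA 2 in DU145, 3 of the 14 and 7 of the 18 rose and none fell, and with gRNA 10, 3 of the 14 fell and 0 rose, against 3 lower and 3 higher of the 18. In 22Rv1 with gRNA 1, 5 of the 14 fell and 2 rose, against 6 and 2 of the 18, and with gRNA 10, 2 fell and 2 rose, against 3 lower and 1 higher. Of all genes tested, 32.1% rose and 31.5% fell with gRNA 2 and 37.9% and 35.6% with gRNA 10 in PC3, 17.1% and 17.0% with gRNA 2 and 20.2% and 19.8% with gRNA 10 in DU145, and 25.6% and 22.9% with gRNA 1 and 20.0% and 20.6% with gRNA 10 in 22Rv1. The difference between these groups of members was not tested.

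In DU145 the picture with gRNA 2 turned on 1 library. In replicate 3 of gRNA 2, 35 of the 41 members had their highest level of the 9 libraries, where 25.8% of all genes tested did. Its member median against the control mean was 0.70 on the log2 scale, against 0.11 and 0.02 in replicates 1 and 2, while the median of all genes lay between -0.00457 and 0.00124 in the 3. The members summed to 10230 CPM there and to 6435 and 6353 CPM in replicates 1 and 2, with 6122 to 6226 CPM in the control. MYC was also highest in this library. Epithelial markers summed to 930 to 966 CPM in the control libraries and to 1650 to 2760 CPM in those of gRNA 2, and the share of mitochondrially encoded genes was 2.89% in replicate 3 against 1.75 and 2.12% in the other two; fibroblast markers summed to 14.4 to 15.7 CPM in the control, 5.09 to 12.3 with gRNA 2 and 25 to 31 with gRNA 10. The marker sums, unlike the member sums, carry no TMM scaling. The part of the markers and of the mitochondrial share in the result was not tested.

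Without that library, 13 members rose and 7 fell with gRNA 2 in DU145, against 23.2% and 22.7% of all genes, and the member median was 0.07. The log2 fold change of LYAR was then 0.68, of DDX18 0.61, of NOP56 0.50 and of BOP1 0.48, against 1.02, 0.77, 0.79 and 0.94 with it, and all 4 passed in both fits, though BOP1 did not when any 1 control library was left out, with no filter or with only the groups compared (adjusted p 0.0567 to 0.0788). NOP56 held 122.5, 126 and 120.5 CPM in the control and 178, 170.2 and 288.5 with gRNA 2. RRP9 turned from 0.14 to -0.38, and NPM1 and NCL, at 0.35 and 0.24 with the library, were at -0.05 and -0.04 without it. Leaving out replicate 2 of gRNA 2 instead gave 21 members higher, against 19.7% of all genes, and leaving out any 1 control library gave 8, against 10.5 to 10.9%. For gRNA 10 in DU145, the same removal of gRNA 2 replicate 3 from the joint fit gave 8 higher and 18 lower, against 29.4% and 29% of all genes, and 4 or 5 were lower when a control library or gRNA 10 replicate 1 or 3 was left out, against 13.9 to 14.6%. A fit of only the groups compared gave 9 higher and 19 lower for gRNA 10, against 33.3% and 32.9%, and 8 higher for gRNA 2, against 11.9%.

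**Figure D4:**
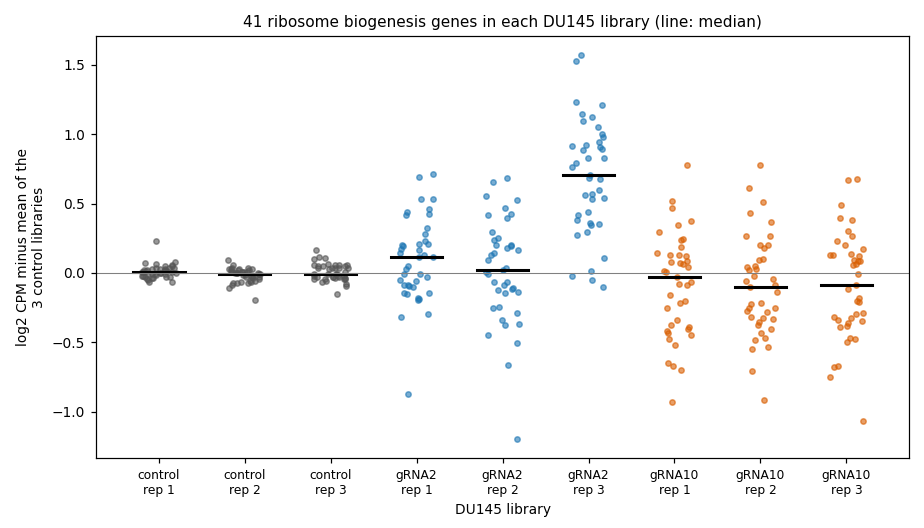
Log2 CPM of each of the 41 members minus its mean over the 3 control libraries, for each DU145 library; points are genes and bars are medians. The points of gRNA 2 replicate 3 lie mostly above 0, with a median of 0.70, and those of gRNA 2 replicates 1 and 2 spread around medians of 0.11 and 0.02.

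In 22Rv1, replicate 3 of gRNA 1 held the lowest level of 18 members and the highest of 10, where 27.7% and 26.9% of all genes tested were lowest and highest there. Without it, gRNA 1 had 6 members higher and 13 lower, with a median of -0.13 against -0.20 with it. The share of all genes called for gRNA 1 in that fit is not given here, so the equal counts do not show that the result held. The number lower with gRNA 10 went from 5 to 9, against 29.1% of all genes and 20.6% with the library kept. Leaving out any 1 gRNA 10 library gave 3 lower, against 14.7 to 15.4% of all genes, and leaving out replicate 1 or 2 of gRNA 10 gave 3 higher, against 15.2 and 15.5%. The members that differed between the guides went from 6 to 10 without gRNA 1 replicate 3, against 45.1% of all genes, and to 3 without gRNA 10 replicate 2 or 3, against 24.6 and 24.9%.

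The change of a member was then set beside that of its genomic neighbours, the tested genes within 5 Mb on either side (25 to 258 of them). Across the 41 members, own and neighbour median log2 fold changes had a Pearson r of 0.65 and 0.71 with gRNA 1 and gRNA 10 in 22Rv1, 0.53 and 0.66 with gRNA 2 and gRNA 10 in DU145, and 0.86 and 0.75 with gRNA 2 and gRNA 10 in PC3. Over all genes tested in each comparison it was 0.22 to 0.29. All genes spanned changes from -13.03 to 14.39, and the members from -1.54 to 1.02. No set of genes of like level was drawn, so the values of r are not like for like. The correlations are descriptions over genes of the same libraries, with no test, and some members share neighbours, as GNL3 and RRP9 do.

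GNL3 and RRP9 lie on chromosome 3. The neighbours of GNL3 had a median of -0.37 with gRNA 1 and -0.54 with gRNA 10 in 22Rv1, and of 0.43 with gRNA 2 in PC3, and GNL3 itself moved the same way. With gRNA 2 in DU145 the neighbours of GNL3 and RRP9 had medians of -0.39 and -0.41, where GNL3 and RRP9 were at 0.06 and 0.14. RRP9 was at -0.38 there without gRNA 2 replicate 3. With gRNA 10 in DU145 the medians were -0.30 and -0.32, and GNL3 and RRP9 were at -0.19 and -0.28. The neighbours of NOP2 on chromosome 12 had medians of 0.62 and 0.53 in 22Rv1, close to the 0.66 and 0.69 of NOP2. The neighbours of PA2G4, also on chromosome 12, had a median of 0.76 with gRNA 10 in PC3, where 103 of 141 rose, against 0.77 for PA2G4. In 22Rv1 they had medians of 0.45 with gRNA 1 and 0.47 with gRNA 10, above the 0.29 and 0.31 of PA2G4. With gRNA 2 their medians were 0.02 in DU145 and 0.04 in PC3, where PA2G4 was at 0.58 and 0.31. Around HEATR1 on chromosome 1 the medians were 0.45 with both guides in PC3, below the 0.83 and 0.73 of HEATR1. In DU145 the neighbours of DDX18 had medians of 0.36 and 0.47 and those of POLR1B 0.43 and 0.45. With gRNA 2 in PC3, NAT10 and NCL were at -0.42 and -0.41, and their neighbours had medians of -0.48 and -0.54. Of these neighbours, 26 of 34 and 34 of 49 fell. In 22Rv1 the neighbours of NCL had medians of 0.15 with gRNA 1 and 0.14 with gRNA 10, where NCL fell. Those of NAT10 had a median of -0.27 with gRNA 10 in DU145, where NAT10 was at -0.68.

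Other members changed more than the median of their neighbours. In PC3 with gRNA 10, NPM1 fell by 0.68 where its 32 neighbours had a median of -0.07, FBL fell by 0.47 where its 193 neighbours had a median of -0.09, and NOP16 fell by 0.61 (edgeR adjusted p 1.04e-11, SE 0.05) where its 85 neighbours had a median of 0.14. DDX10 fell by 1.54 with gRNA 1 in 22Rv1, where its 42 neighbours on chromosome 11 had a median of -0.38 and 21 of them fell. Over the members, the median of own minus neighbour change was 0.14 with gRNA 2 and -0.21 with gRNA 10 in PC3. MYC, on chromosome 8, was at -0.61 and -0.19 with gRNA 1 and gRNA 10 in 22Rv1, where its neighbours had medians of -0.38 and -0.07. In DU145 it was at 0.97 and 0.44 with gRNA 2 and gRNA 10, where its neighbours had medians of 0.18 and 0.34. Gene copy number was not measured.

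**Figure D5:**
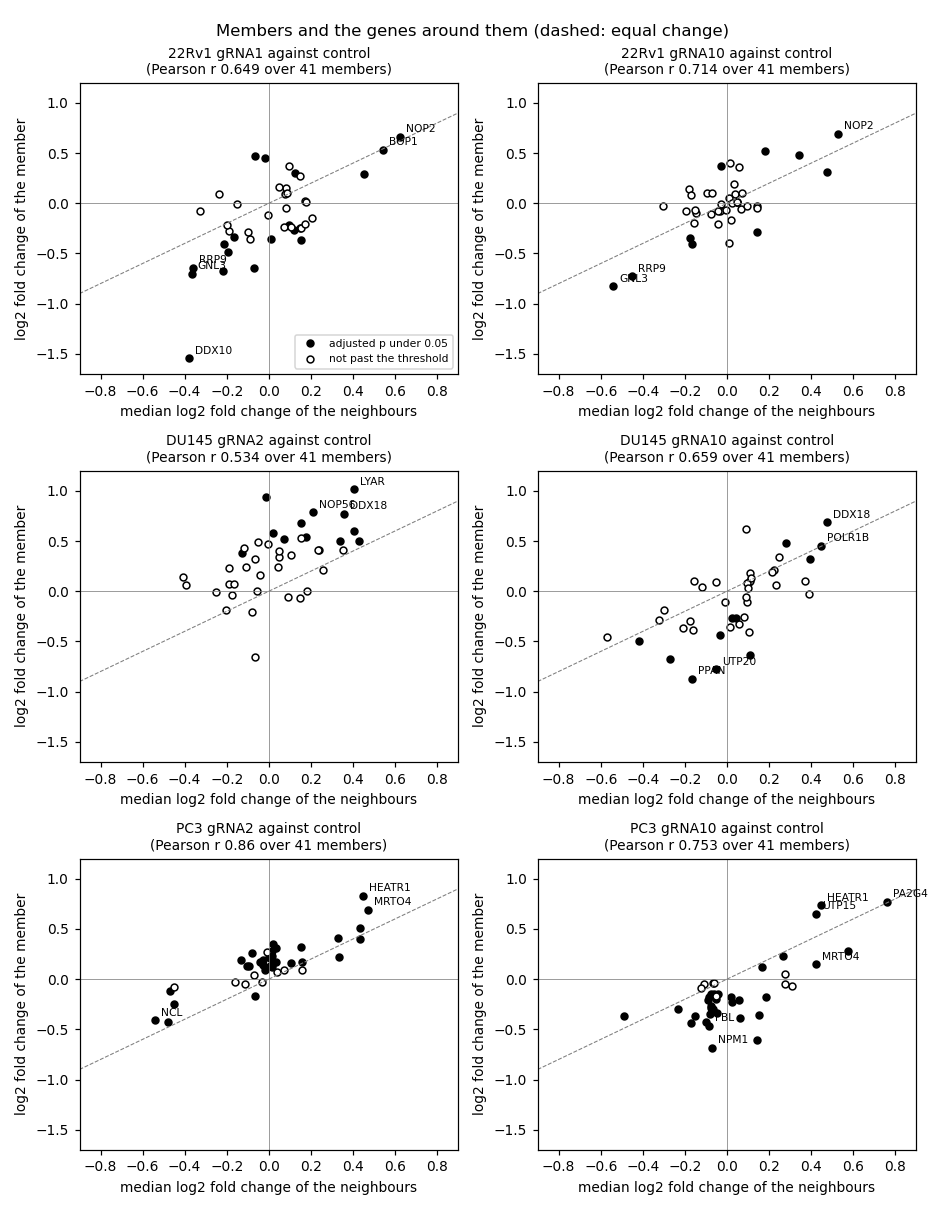
Log2 fold change of each member (vertical) against the median of its tested neighbours within 5 Mb (horizontal) for the 6 comparisons; filled points passed an adjusted p of 0.05 and the dashed line marks equal change. HEATR1 and MRTO4 with PC3 gRNA 2, PA2G4 with PC3 gRNA 10, and GNL3, RRP9 and NOP2 in 22Rv1 lie far out on both axes, while NPM1 and FBL with PC3 gRNA 10 lie low with neighbours near 0.

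Whether the effect of RIPK2 guides differed between lines was tested in a model of all 27 libraries, on the mean of both guides against control. In PC3 this mean joins guides with opposite counts, 27 members higher with gRNA 2 and 26 lower with gRNA 10. In DU145 it includes gRNA 10, where RIPK2 changed by -0.29. The p-values measure the spread between libraries and not between guides. They therefore speak for these populations only. Of the members, 21 differed between 22Rv1 and DU145, 16 lower and 5 higher in 22Rv1, against 47.1% of 16322 genes tested (23.6% lower and 23.5% higher). Between 22Rv1 and PC3, 11 differed, against 45.3%, and between DU145 and PC3, 18, against 42.2%. Leaving out 1 library gave 14 to 25, 9 to 17 and 14 to 24, the 17 without DU145 gRNA 2 replicate 3, against 49.2% of all genes. MYC differed in each comparison, by -1.11 for 22Rv1 minus DU145 (edgeR adjusted p 3.62e-08, SE 0.12), by 0.53 for 22Rv1 minus PC3 (edgeR adjusted p 0.000619, SE 0.12) and by 1.64 for DU145 minus PC3 (edgeR adjusted p 4.53e-11, SE 0.12).

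A further 98 ribosome biogenesis genes, from a list written beside the members, were counted in the same comparisons. In PC3 with gRNA 2, 45 of 96 tested rose and 14 fell, against 32.1% and 31.5% of all genes, and with gRNA 10, 27 rose and 45 fell, against 37.9% and 35.6%. In 22Rv1, 12 of 97 rose and 33 fell with gRNA 1, against 25.6% and 22.9%, and 9 rose and 12 fell with gRNA 10, against 20.0% and 20.6%. In DU145, 24 of 98 rose and 2 fell with gRNA 2, against 17.1% and 17.0%, and 10 rose and 18 fell with gRNA 10, against 20.2% and 19.8%. The largest rise in PC3 with gRNA 2 was EBNA1BP2, a large subunit factor, at 0.85 (edgeR adjusted p 6.26e-17, SE 0.04), and the largest fall UTP14A, a small subunit factor, by 0.71 (edgeR adjusted p 6.55e-11, SE 0.07). For gRNA 10 in the same line, the largest rise was the helicase gene DDX27 at 0.77 (edgeR adjusted p 2.17e-18, SE 0.04), and WDR18 fell by 0.81 (edgeR adjusted p 1.32e-12, SE 0.06).

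In 22Rv1 the helicase gene DDX54 rose by 1.16 with gRNA 1 and 1.17 with gRNA 10 (SE 0.11 each, edgeR adjusted p 1.73e-05 and 1.65e-05). TAF1B, a subunit of the factor that positions RNA polymerase I, fell by 1.16 with gRNA 1 (edgeR adjusted p 9.86e-05, SE 0.15), and NMD3, which exports the large subunit from the nucleus, fell by 0.88 with gRNA 10 (edgeR adjusted p 0.000172, SE 0.12). In DU145, NIFK, a partner of the proliferation antigen Ki-67, rose by 0.84 with gRNA 2 (edgeR adjusted p 0.000637, SE 0.12), and GNL3L, a relative of GNL3, fell by 0.56 (edgeR adjusted p 0.000732, SE 0.08). With gRNA 10 in DU145, NOL10 rose by 0.72 (edgeR adjusted p 0.000812, SE 0.12) and NIP7 fell by 0.90 (edgeR adjusted p 0.00167, SE 0.17).

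Lists of proliferation genes and of other MYC targets were counted too, against the shares of all genes given for the further biogenesis genes. Of 12 proliferation genes in 22Rv1, 0 rose and 7 fell with gRNA 1, and 1 rose and 3 fell with gRNA 10. In DU145, 4 rose and 0 fell with gRNA 2, and 3 rose and 3 fell with gRNA 10. In PC3, 6 rose and 1 fell with gRNA 2, and 9 rose and 2 fell with gRNA 10. Of the other MYC targets, 3 of 26 tested in 22Rv1 rose and 10 fell with gRNA 1, and 6 rose and 6 fell with gRNA 10. Of 27 in DU145, 7 rose and 2 fell with gRNA 2, and 5 rose and 4 fell with gRNA 10. Of 25 in PC3, 11 rose and 7 fell with gRNA 2, and 5 rose and 11 fell with gRNA 10. Epithelial markers summed to 1190 to 1240 CPM in the PC3 control, 1400 to 1430 with gRNA 2 and 2430 to 2590 with gRNA 10, and their part in the member changes was not tested.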

How the data were processed

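The deposited files were 1 table of raw read counts per gene and library for each line. Per the labels' protocols, RNA was extracted with the RNeasy Mini Kit and sequenced from strand-specific mRNA libraries on a DNBSEQ instrument, and the submitters' processing notes name FastQC, STAR, edgeR and the build hg38. Whether counting used strand, and which annotation, are not given in the sources used here. Total counts per library were 17958558 to 20650819, and a count of 0 allows up to 3 counts. Shares of counts have Wilson intervals (95%) that cover counting error only.

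Genes were filtered per line (filterByExpr, minimum count 10, minimum total 15), scaled with TMM factors and tested with the quasi-likelihood test of edgeR 4.0.16 (R 4.3.3) on the 9 libraries of the line, with no block, and Benjamini-Hochberg adjustment over all 15198, 14908 and 14718 genes tested in 22Rv1, DU145 and PC3, at a threshold of 0.05. Differences between lines used 1 model of all 27 libraries and 16322 genes. The method was tested on simulated data. Gene lengths and positions are from GENCODE 29, promoters from RefSeq. The text names MYC, RIPK2, the core genes of each role, the 3 members with the largest changes past the threshold in each comparison, members called in one direction in at least 5 of 6 comparisons or in opposite directions with the guides of a line (up to 3 per line, those whose guides differ most), and the largest rise and fall among other biogenesis genes. NOLC1, UTP15, RRP12, NOP14, NAT10, RRP1B, POLR1C and NOP16 were added after their values were seen. The members and lists were chosen with earlier results of these data known. One luminal marker is not reported here and is left out of the luminal sums. Alternatives were RLE factors, DESeq2 1.42.0, no filter or a stricter one, only the groups compared, no mitochondrially encoded genes, a replicate block and leaving out each library.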

Additional observations from a re-analysis of the deposited data

Results flagged for a closer look

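MYC and some members changed differently between lines by the test of the difference itself, in edgeR's model of all 27 libraries (mean of both guides against control). That mean joins guides that moved many members in opposite directions in PC3, and its p-values do not measure the spread between guides. The counts of members that differed were 21 of 41 for 22Rv1 minus DU145, 11 for 22Rv1 minus PC3 and 18 for DU145 minus PC3, against 47.1%, 45.3% and 42.2% of all genes tested, and MYC differed by -1.11, 0.53 and 1.64. With so many genes called, these counts are not read as particular to the members.

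For 22Rv1 minus DU145, DDX10 differed by -1.26 (edgeR adjusted p 1.28e-09) and PPAN by 1.13 (edgeR adjusted p 0.00715). DDX10 was at -1.54 with gRNA 1 and -0.07 with gRNA 10 in 22Rv1. In DU145 it was at 0.41 with gRNA 2 and 0.48 with gRNA 10. For 22Rv1 minus PC3, GNL3 differed by -1.12 (edgeR adjusted p 6.94e-08) and HEATR1 by -0.92 (edgeR adjusted p 7.23e-07). For DU145 minus PC3, DDX18 differed by 0.78 (edgeR adjusted p 9.06e-05) and PPAN by -0.80 (edgeR adjusted p 0.0483), the latter lost in the fit without a filter, with the replicate block and on leaving out any of 17 of the 27 libraries (adjusted p 0.0501 to 0.136).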

How the results depend on the processing

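Fitting only the groups compared gave 8 members lower with gRNA 1 (17.4% of all genes) and 8 with gRNA 10 (28.1%) in 22Rv1, 8 higher with gRNA 2 in DU145, 9 higher and 19 lower with gRNA 10 in DU145, and 10 that differed between the DU145 guides. No filter on low counts gave 3 lower with gRNA 10 in 22Rv1. RLE factors, DESeq2, the stricter filter and leaving out mitochondrially encoded genes kept every count within 1.5 times, and the cause of the other shifts was not tested. Leaving out 1 library gave, for higher and lower, 4 to 6 and 9 to 14 with gRNA 1 and 3 to 7 and 3 to 9 with gRNA 10 in 22Rv1, 8 to 21 and 0 to 7 with gRNA 2 and 3 to 8 and 4 to 18 with gRNA 10 in DU145, and 24 to 27 and 4 to 5 with gRNA 2 and 7 and 25 to 27 with gRNA 10 in PC3. Members that differed between guides numbered 3 to 10 in 22Rv1, 10 to 25 in DU145 and 35 to 38 in PC3, and between lines 14 to 25, 9 to 17 and 14 to 24. The share of all genes called also moved between fits, as given above for some of them. These ranges therefore do not describe the members alone. The member median ranged from -0.22 to -0.13 and from -0.0344 to 0.00894 with gRNA 1 and gRNA 10 in 22Rv1, from 0.07 to 0.49 and from -0.1004 to -0.0244 with gRNA 2 and gRNA 10 in DU145, and from 0.14 to 0.17 and from -0.21 to -0.17 with gRNA 2 and gRNA 10 in PC3. With gRNA 10 in 22Rv1 it was -0.03745 with no filter, -0.015 with only the groups compared and -0.04185 without mitochondrially encoded genes. Named values that changed sign were in DU145 with gRNA 2, RRP9 at -0.383 to 0.425, NPM1 at -0.0507 to 0.5295 and NCL at -0.0411 to 0.371, each lowest without gRNA 2 replicate 3.

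The replicate numbers did not pair the libraries (correlations of deviations -0.189 to 0.339). With the number as a replicate block, higher and lower counts were 6 and 10 with gRNA 1 and 6 and 4 with gRNA 10 in 22Rv1, 12 and 0 with gRNA 2 and 4 and 6 with gRNA 10 in DU145, and 27 and 5 with gRNA 2 and 7 and 26 with gRNA 10 in PC3. The shares of all genes in the block fits are not given here, so these counts are not read against them. The block ended the calls of DKC1 with gRNA 1 in 22Rv1 and of PA2G4 with gRNA 2 and PPAN with gRNA 10 in DU145 (adjusted p 0.0541, 0.0521 and 0.0635). With 3 libraries a group and a common coefficient of variation of 14.2% and 12.3%, small changes in 22Rv1 and DU145 were less detectable than in PC3.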
